A study of Eutrema with 12 samples.

Results

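Transcript levels in cauline leaves, the small leaves borne on the flowering stem, were compared between *Thellungiella salsuginea* plants collected at 1 Yukon field site in 2003 and in 2005. All 12 arrays of the series entered the comparison. They hold 3 individual field plants titled Field 2003 (A, B and C) and 3 titled Field 2005, each hybridized on 2 two-colour cDNA arrays with the dyes exchanged on the second array. For the last 2005 plant the letter C of the sample labels is used here, where the design text has D. Every field plant was set against cauline leaf RNA of 12 week old cabinet plants of the same Yukon ecotype, which received a 21 h day at 22 °C and 10 °C nights and no treatment. The field plants grew under ambient conditions, in a season that the study describes as dry in 2003 and wet in 2005. It also reports lower average high and low temperatures in the days before the 2005 harvest than before that of 2003. Sampling was in early July of 2003 and late June of 2005, and the study calls light and temperature during harvest comparable. The field mRNA was amplified before labelling and the cabinet mRNA was not, in both years alike. Whether field plants shared a cabinet RNA is not given in the paper or the labels.

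*Thellungiella* is a relative of *Arabidopsis* that grows on saline soil and tolerates salt, drought and cold. In plants of this family a shortage of water raises abscisic acid (ABA), which turns on genes of dehydration response such as RD20. Low temperature acts through the CBF or DREB1 transcription factors on cold-regulated genes such as COR15. Sucrose synthesis and the water channels of the plasma membrane also adjust to drought and cold.

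The value of a plant is the log2 ratio of field over cabinet intensity, so that 1 unit is a 2-fold difference and 0 is the cabinet level. The difference between the years is the mean of the 3 plants of 2005 minus that of the 3 plants of 2003, and it was tested with limma for all 4279 cDNA identifiers. A call needed a difference of at least 1.5-fold and an adjusted p (Benjamini-Hochberg) under 0.05. Of these identifiers 4251 are clones without a gene in the files, and 28 carry a gene name, 24 of them with a known meaning. None of the gene names on the array is a defining marker of leaf, flower or seed, so the tissue could not be checked. In whole leaves a smaller share of a cell type and less RNA per cell cannot be told apart.

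The field over cabinet ratio differed between the years at 68 cDNAs, of which 33 stood higher in 2005 and 35 stood lower. A difference in the ratio can lie in the field channel, in the cabinet channel or in both, and the channels are given further on. These are 1.59% of the cDNAs tested, or 0.771% higher and 0.818% lower. The size of the called differences ran from 2.04-fold to 19.5-fold, with a median of 3.31-fold, against a median of 1.33-fold over all cDNAs. All 68 were clones, none carried a gene name, and none was as dim in both channels as the spots without a name. The count moved with the plants and the model. With the plant letter as a replicate block the same fit called 353 cDNAs, 145 higher and 208 lower, among them all 68. No source gives the letters a meaning across years, and the block was taken up because of these same ratios. Leaving out any of the 3 plants of 2005 left 0 calls with limma, beside 687 to 893 cDNAs at an unadjusted p under 0.05. Leaving out plant A of 2003 left 7 calls and leaving out plant C of 2003 gave 158. In each of these fits all 68 kept the sign of their difference and an unadjusted p under 0.05. The 68 were picked by their p in these same plants, so this is not a separate test. The processed values that the authors deposited gave 127 calls, 75 higher and 52 lower, so the split moved from 48.5% to 59.1% higher.

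Looser measures were met by many more cDNAs, counted here over all cDNAs with the called ones included. The unadjusted p was under 0.05 at 1163 cDNAs (27.2%), and 511 had an adjusted p under 0.10, but the smallest adjusted p was 0.0343. A difference of at least 1.5-fold was seen at 1547 cDNAs (36.2%) and of at least 4-fold at 127. All 3 plants of 2005 lay above all 3 of 2003 at 721 cDNAs (16.8%) and below them at 766 (17.9%). At 111 cDNAs the years did not overlap and also differed by at least 4-fold. At 166 cDNAs all 2003 plants were above the cabinet and all 2005 plants below it, with 19 calls. At 139 the order was turned, with 13 calls.

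The plants of 2005 were more alike than those of 2003. The median absolute difference between a pair of 2005 plants (log2 ratio) was 0.25 to 0.29, and between a pair of 2003 plants it was 0.36 to 0.49. Between plants of different years it ran from 0.36 to 0.63, so the nearest pair of plants across years, C and C, was as close as the nearest pair within 2003. The median SD between plants was 0.38 in 2003 and 0.24 in 2005, and the SD was larger in 2003 at 70.5% of the cDNAs. On the first principal component, with 50.3% of the variance, the 2003 plants stood at -28.5 (A), -36.7 (B) and -13.9 (C), and the 2005 plants at 19.0 (A), 35.0 (B) and 25.1 (C). The second component, with 27.8%, mainly set A of 2003 at 32.2 apart from B of 2003 at -34.5.

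**Figure D1:**
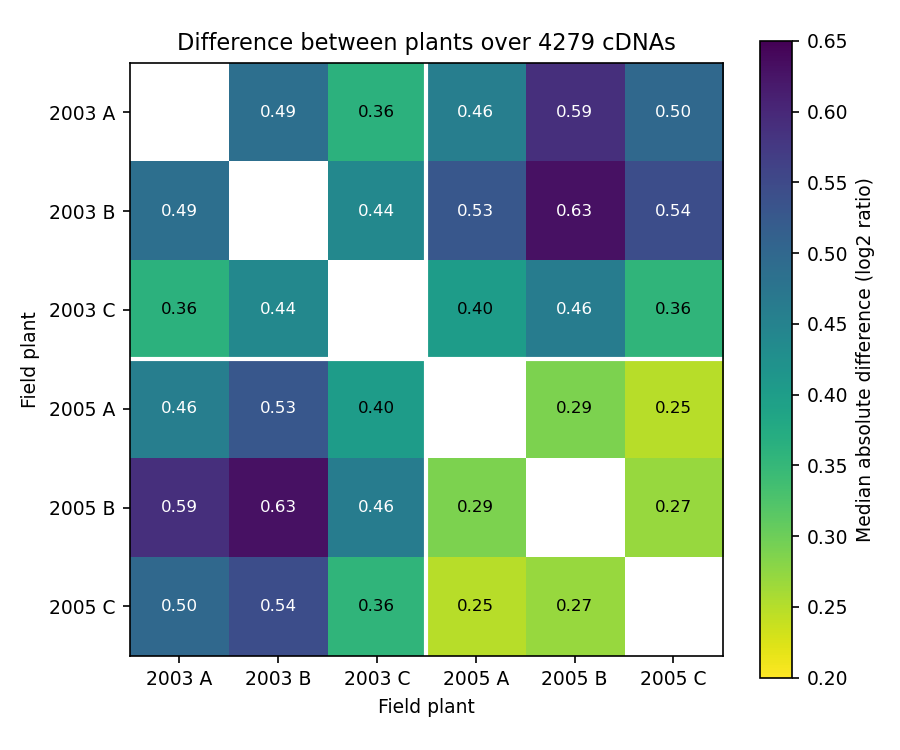
Median absolute difference in log2 field over cabinet ratio between each pair of the 6 field plants, over 4279 cDNAs; rows and columns are plants and colour gives the value printed in each cell. The block of 2005 plants holds the lowest values, 0.25 to 0.29, while pairs within 2003 (0.36 to 0.49) overlap with pairs across years (0.36 to 0.63).

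**Figure D2:**
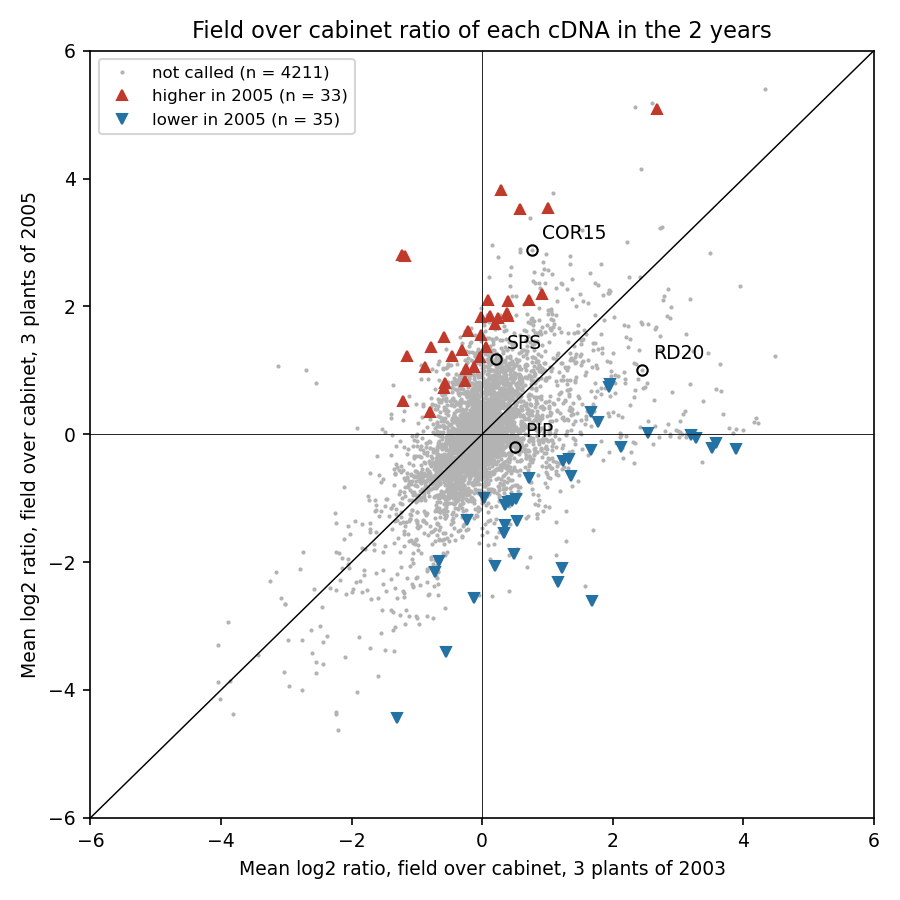
Mean log2 field over cabinet ratio of each cDNA in the 3 plants of 2003 (x axis) and the 3 plants of 2005 (y axis), with equal values on the diagonal line. The 33 cDNAs called higher in 2005 are upward triangles, the 35 called lower are downward triangles, and open circles mark 4 gene-named cDNAs, none of which was called.

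No call fell on the 24 cDNAs that bear the name of a gene with known function, and 5 had an unadjusted p under 0.05, which is 20.8% beside 27.2% of all cDNAs. Of the 24, 11 had a positive and 13 a negative difference, with a median of -0.05 (log2) beside -0.02 over all cDNAs. The years did not overlap at 11 of them, 6 with the 2005 plants above (25.0%, beside 16.8% of all cDNAs) and 5 with the 2005 plants below (20.8%, beside 17.9%). COR15, RD20, SPS and PIP stood out by size and are given first.

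COR15 encodes a cold-regulated chloroplast protein that in *Arabidopsis* protects membranes during freezing. Its log2 ratio was 1.44, 0.49 and 0.36 in plants A, B and C of 2003, and 3.19, 1.83 and 3.64 in those of 2005. Every plant of 2005 was above every plant of 2003, and all 6 were above the cabinet. The difference was 2.13 ± 0.52 (SE), or 4.37-fold, with a 95% interval of 0.87 to 3.38 and a limma adjusted p of 0.0727, and with the replicate block the adjusted p was 0.0473. Its 3 spot positions gave differences of 1.63, 1.92 and 2.83. Its cabinet spots were dim, at 3.98 (2003) and 3.68 (2005) times their background, where spots without a name stood at 3.68. Its field channel intensity, as normalized, was called higher on the 2005 arrays by 2.63 ± 0.46 (log2, SE, limma adjusted p 0.00244). The cabinet channel differed by 0.51 ± 0.33 (adjusted p 0.277). In a single channel, here and for the cDNAs below, year and array set cannot be told apart.

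RD20, a calcium-binding protein gene that dehydration and ABA induce, ran the other way. Its log2 ratio was 2.74, 3.12 and 1.51 in the 2003 plants and 1.29, 0.82 and 0.93 in the 2005 plants. All 6 plants were above the cabinet, with the 2005 plants below those of 2003, and C of 2003 was the nearest to 2005. The difference was -1.44 ± 0.43 (SE; 2.72-fold), with a 95% interval of -2.46 to -0.43 and an adjusted p of 0.102, or 0.0709 with the replicate block. Without plant C of 2003 it was -1.92, at an adjusted p of 0.0400, and without any other plant it was -1.11 to -1.58, at adjusted p of 0.147 to 0.295. Its 3 spot positions gave -1.56, -1.09 and -1.69.

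The 2 channels of RD20 differed in how they moved. Its field channel intensity was 13.12, 13.04 and 12.14 (log2) in 2003 and 12.93, 12.59 and 12.90 in 2005, and the years overlapped. Its cabinet channel intensity was 10.38, 9.92 and 10.63 in 2003 and 11.64, 11.77 and 11.97 in 2005, with no overlap. The field channel differed by 0.04 ± 0.35 (SE, adjusted p 0.943) and the cabinet channel was called higher on the 2005 arrays by 1.48 ± 0.29 (adjusted p 0.00421).

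SPS, which stands for sucrose phosphate synthase, the enzyme that makes the precursor of sucrose, had log2 ratios of 0.16, 0.44 and 0.07 in 2003 and of 1.24, 1.30 and 0.99 in 2005. The 2003 plants lay near the cabinet level and each of the 2005 plants about 2-fold above it, with little spread in either year. The difference was 0.96 ± 0.20 (SE; 1.94-fold), with an adjusted p of 0.0607, and 0.0467 with the replicate block. It stood at 1.05, 1.19 and 0.63 in the 3 spot positions. The field channel was called higher by 1.56 ± 0.38 (adjusted p 0.0110) and the cabinet channel differed by 0.60 ± 0.38 (adjusted p 0.255).

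PIP, named after the plasma membrane intrinsic proteins that conduct water, had log2 ratios of 0.47, 0.52 and 0.51 in 2003 and of -0.31, -0.05 and -0.23 in 2005. The plants of 2003 were above the cabinet and those of 2005 below it. The difference was -0.70 ± 0.18 (SE, 1.62-fold), at a limma adjusted p of 0.0736, or 0.0769 with the replicate block. With median centring in place of loess it was -0.27, at an adjusted p of 0.419. PIP was bright in all arrays, and both of its channels were called higher on the 2005 arrays, the field channel by 1.54 ± 0.30 (adjusted p 0.00401) and the cabinet channel by 2.24 ± 0.27 (adjusted p 0.000434).

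**Figure D3:**
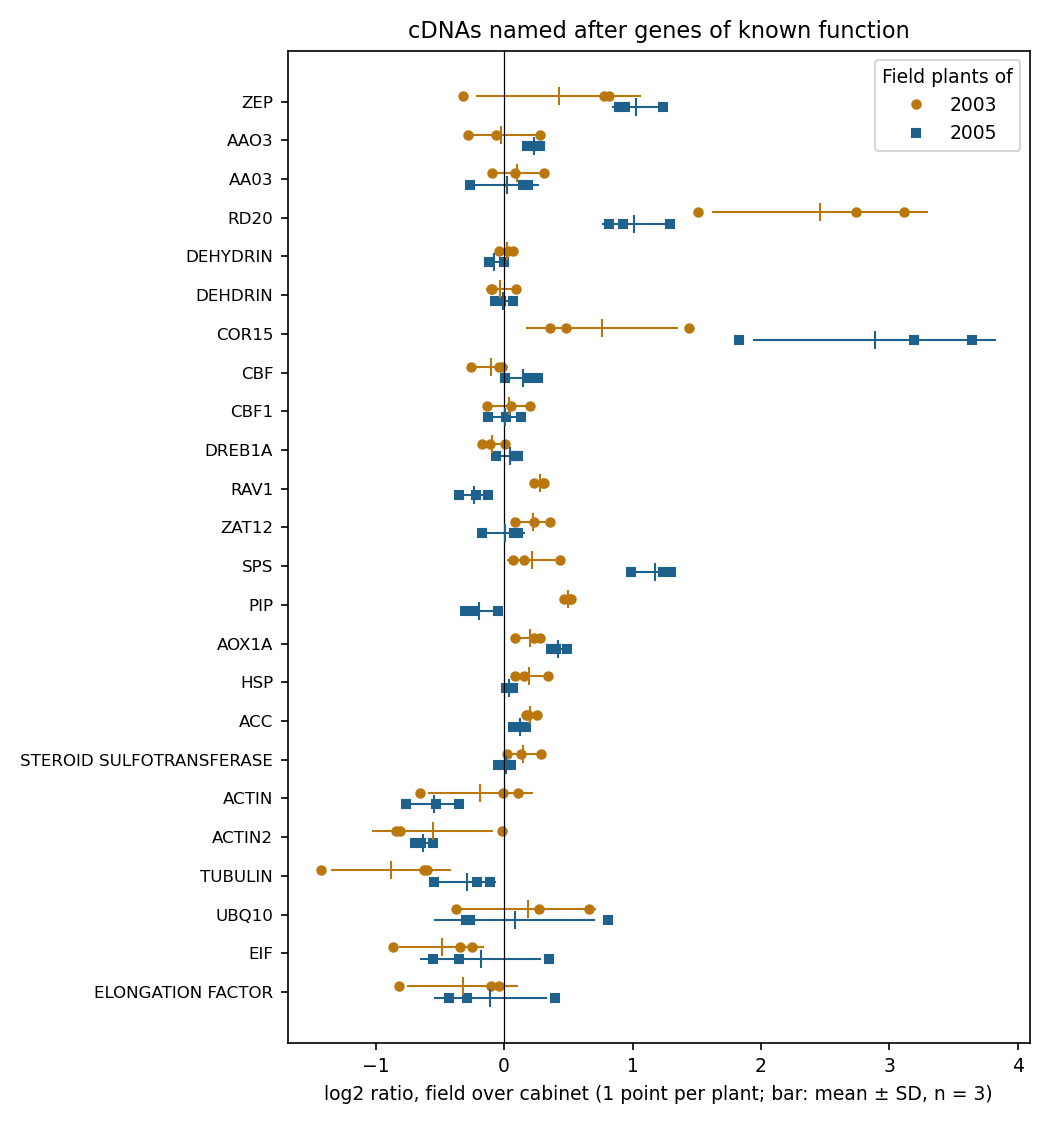
Log2 field over cabinet ratio of the 24 cDNAs that bear the name of a known gene, with 1 point per plant (circles 2003, squares 2005) and a bar for the mean ± SD of the 3 plants. COR15 and SPS have their 2005 plants to the right of the 2003 plants and RD20 and PIP to the left, while none of the 24 was called.

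The regulators of the cold response stayed near the cabinet level in both years. CBF, CBF1 and DREB1A, transcription factors that switch on cold-regulated genes, had year means between -0.10 and 0.15 (log2 ratio). Their differences were 0.25 ± 0.18, -0.03 ± 0.19 and 0.14 ± 0.18 (SE), at adjusted p of 0.415, 0.932 and 0.641. RAV1, a DNA-binding protein gene that cold regulates in *Arabidopsis*, had values of 0.30, 0.31 and 0.24 in 2003 and of -0.22, -0.35 and -0.13 in 2005. Its years lay on opposite sides of the cabinet level without overlap, with a difference of -0.51 ± 0.17 at an adjusted p of 0.132, but it was -0.17 with print-tip loess and -0.21 on the arrays of reversed dye order alone. ZAT12, a zinc finger regulator of stress response, differed by -0.22 ± 0.19 and its years overlapped. In the cold group of 6, counting COR15, 3 differences were positive and 3 negative, with a median of 0.05. Averaged over all 12 arrays, CBF, RAV1 and ZAT12 did not exceed the unnamed spots in brightness in either channel, nor did AA03 and HSP. On the 2005 arrays alone CBF1, AOX1A, DEHDRIN and STEROID SULFOTRANSFERASE were also below that level in both channels. The ratios of these names rest on little signal.

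In ABA synthesis, ZEP, the zeaxanthin epoxidase that also works in the xanthophyll cycle, had log2 ratios of -0.32, 0.77 and 0.82 in 2003 and of 0.89, 1.24 and 0.94 in 2005. The 2005 plants lay above all of 2003, but B and C of 2003 lay close below them and only A was under the cabinet level. The difference was 0.60 ± 0.34 (SE; 1.52-fold), with an adjusted p of 0.306, and without plant A of 2003 it was 0.23. The field channel of ZEP differed by 0.01 ± 0.30 (limma adjusted p 0.977) and its cabinet channel by -0.59 ± 0.28 (adjusted p 0.143). AAO3, the aldehyde oxidase of the last step of ABA synthesis, differed by 0.26 ± 0.21, and AA03, spelled with a zero on the array, by -0.08 ± 0.22, and the years of both overlapped. DEHYDRIN and DEHDRIN, spellings of a family of protective proteins that accumulate in drying cells, differed by -0.10 ± 0.17 and 0.03 ± 0.17. Their year means lay between -0.08 and 0.02, in contrast to RD20 of the same group. Their spots were dim, so that this contrast rests on little signal. In the field channel DEHYDRIN stood at 3.95 (2003) and 4.22 (2005) times background and DEHDRIN at 4.09 and 3.00. Spots without a name stood at 3.55, and RD20 at 42.3 and 61.6.

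Of the other stress and metabolic names, AOX1A, the alternative oxidase of mitochondria, had all 2005 plants above those of 2003, with a difference of 0.22 ± 0.17. HSP, a heat shock protein name, and ACC, whose name does not say which of several genes it stands for, had all 2005 plants below those of 2003, by -0.16 ± 0.17 and -0.08 ± 0.17. STEROID SULFOTRANSFERASE differed by -0.13 ± 0.18 and overlapped. None of these 4 passed, with adjusted p of 0.452 to 0.791. In the group of 6 with SPS and PIP, 2 differences were positive and 4 negative, and the median was -0.10.

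The 6 reference genes gave a measure of how far ratio and intensity part. In the ratio none was called, with 3 positive and 3 negative differences from -0.36 ± 0.26 (ACTIN) to 0.59 ± 0.29 (TUBULIN). The 3 spot positions of TUBULIN did not move alike, at -0.51, 1.35 and 0.94. In the single channels ACTIN, EIF and UBQ10 were called in both, in the same direction. ACTIN was higher on the 2005 arrays by 2.26 ± 0.33 in the field channel and by 2.63 ± 0.43 in the cabinet channel. EIF, a translation initiation factor, was higher by 1.63 ± 0.33 and 1.33 ± 0.30. UBQ10, a polyubiquitin, was lower, by -1.58 ± 0.32 and -1.48 ± 0.33. The adjusted p of these 6 values ran from 0.000949 to 0.00910. ACTIN2 was called in neither channel (-0.05 ± 0.40 in the field, 0.02 ± 0.32 in the cabinet), nor was TUBULIN (0.08 ± 0.28 and -0.52 ± 0.31). ELONGATION FACTOR was called in the field channel alone, higher by 1.26 ± 0.38, beside 1.04 ± 0.36 in the cabinet channel (limma adjusted p 0.0503).

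Over all cDNAs the 2 channels moved together between the years. The field channel was called at 1610 cDNAs (37.6%) and the cabinet channel at 1469 (34.3%), with 1067 called in both. Across cDNAs (no independent replicates) the 2005 minus 2003 difference in the field channel correlated with that in the cabinet channel at r = 0.83. The 2 channels of an array share its slide, its print and its hybridization. The median absolute difference (log2) was 0.83 in the field channel, 0.68 in the cabinet channel and 0.41 in their ratio. Although the labels give the cabinet plants of both years the same growth conditions, their signal differed between the years' arrays nearly as widely as that of the field plants. The scanner files carry 4 quantification dates for the 2003 arrays and 2 for the 2005 arrays, with none in common. Year and array set therefore cannot be told apart in a single channel. A difference between the cabinet RNAs of the 2 array sets would not cancel in the ratio either, and there it cannot be told apart from a difference between the field plants. With the date as a random block over the 12 arrays, which does not account for the 2 arrays of a plant, 420 cDNAs were called in the ratio.

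Of the 68 called cDNAs, 34 were also called in the field channel alone, 14 in both channels, 15 in the cabinet channel alone and 5 in neither. In all, 48 were called in the field channel and 29 in the cabinet channel. Over all 4279 cDNAs these were 1610 (37.6%) and 1469 (34.3%), with 1067 in both. The 68 were picked by the ratio, the difference of the channels, which favours calls in 1 channel and medians of opposite sign. The difference in the field channel was larger than that in the cabinet channel at 46 of the 68 (67.6%), beside 56.1% of all cDNAs. Among the 33 called higher, the median difference was 1.81 in the field and -0.17 in the cabinet channel. Among the 35 called lower it was -1.18 in the field and 0.50 in the cabinet channel.

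**Figure D4:**
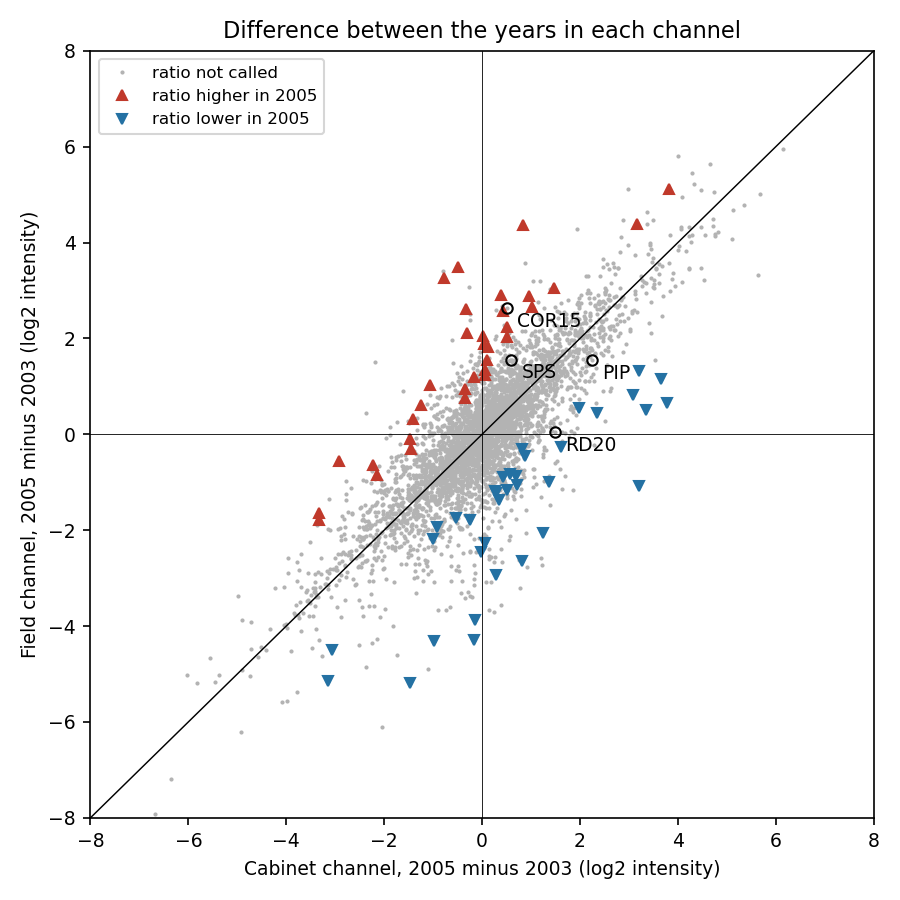
Difference between the years (2005 minus 2003, log2 intensity) in the cabinet channel (x axis) and in the field channel (y axis) for each cDNA; on the diagonal line the ratio does not differ. Triangles are the 33 and 35 called cDNAs, and the cloud runs along the diagonal (r = 0.83). RD20 lies to the right, with the larger difference in the cabinet channel, and COR15 at the top, with the larger one in the field channel. Year and array set cannot be told apart in a single channel.

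The clones with the largest called differences show these forms. The clone cld5_d08 had log2 ratios of -1.56, -1.89 and -0.22 in 2003 and of 2.12, 3.86 and 2.45 in 2005. All 2003 plants were below the cabinet and all 2005 plants above it, a difference of 4.03 ± 0.59 (SE; 16.4-fold) at an adjusted p of 0.0397. Its field channel was higher by 3.26 ± 0.67 (adjusted p 0.00536), and its cabinet channel differed by -0.78 ± 0.40 (adjusted p 0.172).

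The clone cld24_f12 followed it plant by plant. In 2003 its plants had log2 ratios of -1.57, -1.74 and -0.25, and in 2005 of 2.01, 3.87 and 2.51, a difference of 3.98 ± 0.59 at an adjusted p of 0.0397. The root mean square distance between these clones over the 6 plants was 0.08. In all, 12 of the 68 called cDNAs had another within 0.2. Whether such clones carry the same transcript was not tested.

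The clone drt5_d05 went from above to below the cabinet level. The 2003 plants had log2 ratios of 2.74, 0.73 and 1.56 and the 2005 plants of -1.36, -3.72 and -2.74, a difference of -4.28 ± 0.71 (SE; 19.5-fold) at an adjusted p of 0.0490. By normalized intensity the larger difference was in the cabinet channel, higher on the 2005 arrays by 3.21 ± 0.55 (limma adjusted p 0.00232). The field channel differed by -1.08 ± 0.56 (adjusted p 0.155). In the cabinet channel 3 of its 18 readings of 2005 were at the scanner maximum.

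The clone drt11_b03 was high in the field only in 2003. Its log2 ratios were 3.12, 5.23 and 3.33 in the 2003 plants and -0.62, 0.32 and -0.41 in the 2005 plants, a difference of -4.13 ± 0.59 (SE) at an adjusted p of 0.0362. The field channel was lower in 2005 by -4.29 ± 0.49 (adjusted p 0.000328), and the cabinet channel differed by -0.16 ± 0.35 (adjusted p 0.761).

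**Figure D5:**
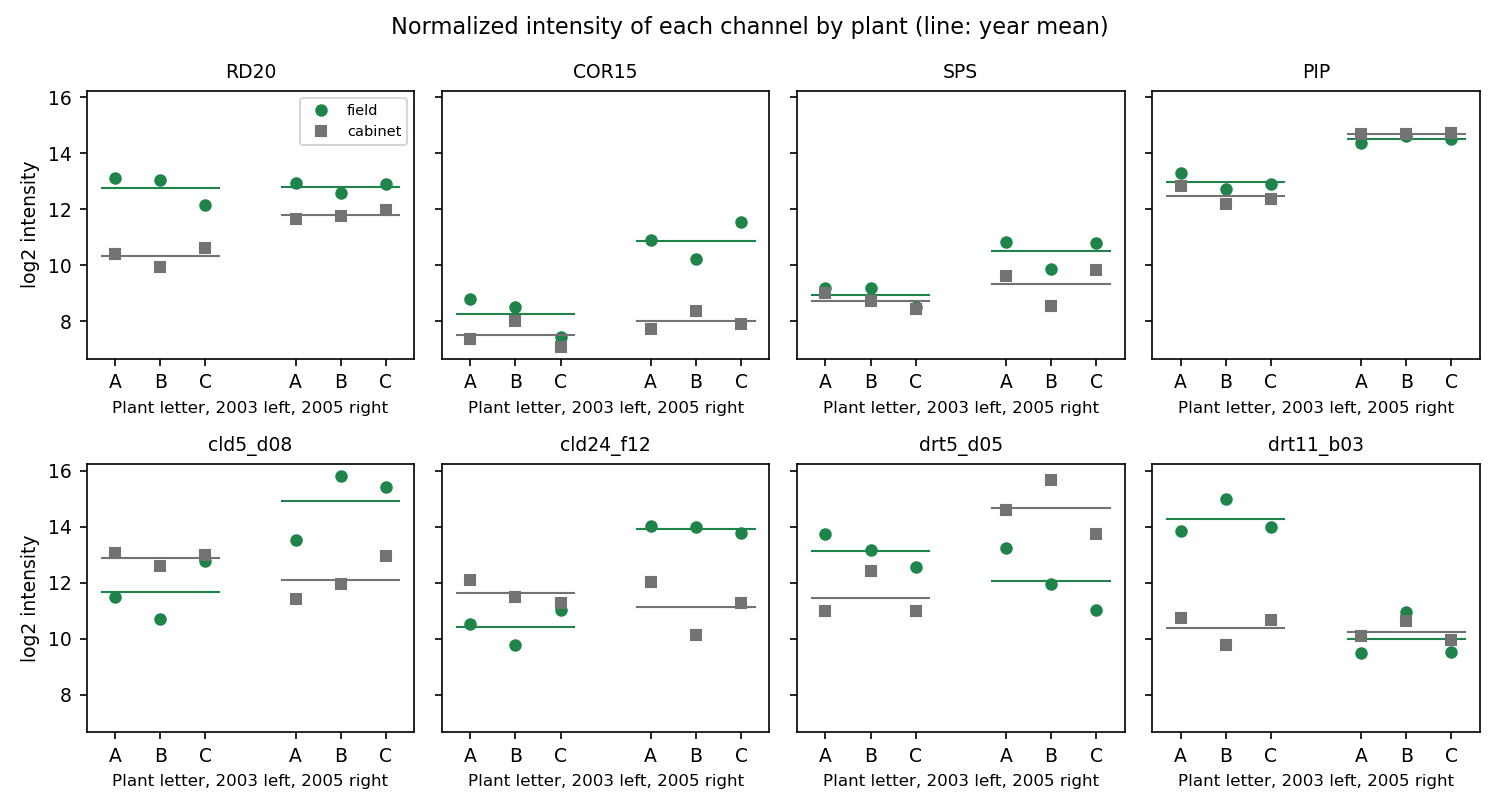
Normalized log2 intensity in the field channel (circles) and the cabinet channel (squares) of each plant, for 4 gene-named cDNAs and 4 clones; lines give the mean of each year. As normalized, RD20 and drt5_d05 differ between the years mainly in the cabinet channel, and PIP in both. COR15, cld5_d08, cld24_f12 and drt11_b03 differ mainly in the field channel. Year and array set cannot be told apart in a single channel.

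The form of drt11_b03 recurred. A mean log2 ratio of at least 3 in 2003 with a mean within 0.5 of the cabinet level in 2005, bounds chosen after the values were seen, was met by 23 cDNAs. The turned form, high in 2005 and near the cabinet in 2003, was met by 1. In the 23 the plants of 2003 ranged from 1.72 to 5.81 and those of 2005 from -0.83 to 1.54. Their median difference was -3.37 in the field channel and 0.08 in the cabinet channel. Of the 23, 5 were called in the ratio and 23 in the field channel, beside 1.59% and 37.6% of all cDNAs. The bounds by which they were picked favour such calls. Whether the 23 carry separate transcripts was not tested. The adjusted p of the ratio ran from 0.0343 to 0.0988, and the median SD among the 2003 plants was 1.31. The group was picked by its values, so these are descriptions without a test.

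All 23 carried names that begin with drt (9), drtg (8) or sc (6), prefixes borne by 793, 477 and 135 of the cDNAs. By prefix, the calls fell as follows. Of the 1974 cld clones, 30 were called (1.52%), 20 higher and 10 lower, and the 2005 plants lay above those of 2003 at 403 (20.4%) and below at 281 (14.2%), beside 16.8% and 17.9% of all cDNAs. Of the 793 drt clones 17 were called (2.14%), 6 higher and 11 lower, and of the 477 drtg clones 5 (1.05%), 1 higher and 4 lower. The 2005 plants lay above those of 2003 at 91 drt clones (11.5%) and below at 175 (22.1%), and above at 51 drtg clones (10.7%) and below at 111 (23.3%). The 653 slt clones had 11 calls (1.68%), 4 higher and 7 lower, and the 135 sc clones 4 calls (2.96%), 1 higher and 3 lower. At 91 slt clones (13.9%) the 2005 plants lay above and at 134 (20.5%) below, and at 22 sc clones (16.3%) above and at 31 (22.96%) below. There was 1 call among 145 sltg clones (0.69%) and none among 38 sd and 36 ss clones, sets too small to tell 0 calls from the 1.59% of all cDNAs. An unadjusted limma p under 0.05 was seen at 16 sd clones (42.1%) and 11 ss clones (30.6%), beside 27.2% of all cDNAs.

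In the ratio the sd clones stood highest as a set. Their median difference was 0.69 (log2), beside -0.02 over all cDNAs, 32 of 38 were positive, and at 20 of them (52.6%) all 2005 plants lay above all 2003 plants, beside 16.8% of all cDNAs. Their median ratio was -0.40 in 2003 and 0.28 in 2005. By channel their median difference was 0.18 in the field and -0.40 in the cabinet channel, beside -0.01 and 0.05 over all cDNAs. Among the 36 ss clones the 2005 plants lay above those of 2003 at 12 (33.3%) and below at 1 (2.78%). For the 145 sltg clones this was 24 (16.6%) and 25 (17.2%). The ss clones had a median difference of 0.27 in the ratio, with -0.37 in the field and -0.48 in the cabinet channel. The drt clones had one of -0.15, with -0.29 in the field and -0.05 in the cabinet channel. No meaning was given to a prefix.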

How the data were processed

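Cauline leaf RNA of 6 field plants was measured on 12 two-colour arrays against cabinet RNA (channel 1 cabinet, channel 2 field, dyes exchanged on the second array of a plant). The authors deposited QuantArray tables that give, per channel, the linear intensity of a spot and of its surroundings, unnormalized. The authors also deposited processed values on a log10 scale, which correlated with the ratios computed here at r = 0.972 to 0.996 (field over cabinet). Their column medians on the first array of the plants of 2003, in order of letter, were -0.0320, 0.00432 and -0.0348, and on the dye-reversed array -0.0140, -0.00276 and -0.00298. For 2005 they were -0.00230, -0.0213 and -0.0145 on the first and 0.0112, -0.00970 and -0.00184 on the reversed array. Their normalization is not known from the paper, the labels or the files, and they served as an alternative.

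Normexp (offset 50) in limma 3.58.1, run in R 4.3.3, removed the background and ratios were normalized by loess within each array, with control spots at weight 0 and then left out with all spots named n/a. This left 13449 of 14688 spots. Averages were taken over the spots of a cDNA (3 for 4097 cDNAs) and next over both arrays of each plant, which correlated at r = 0.865 to 0.961. Single channels were scaled with Aquantile after loess. The fit had a mean per year and a spread per cDNA common to the years. Its degrees of freedom were 4 (residual) and 2.66 (prior). Median brightness over background was 7.40 to 35.4 by array and channel, and 31 to 400 saturated spots an array were kept. The number of plants, 3 a year, limits the precision. The study's Bayesian model was not repeated. The procedure was tested on simulated data.

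The same letters recur in both years. With year means taken off, plants correlated across cDNAs at r = 0.58 (A), 0.24 (B) and 0.31 (C) within a letter. Between others r was -0.33 to 0.05, and taking off the year means ties these values to one another. The letter was treated as a pairing, and its fit with a replicate block is given where it changes a call. It is also given for RD20 and PIP, where it does not. Since the pairing was read from the ratios that the fit tests, a call gained with it is no separate support. No source says what the letters share.

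The comparison and the gene lists were chosen with earlier results of these data known. Named are all 24 known gene names and the 2 highest and 2 lowest called clones whose spots, at least 3, agree in sign and exceed in brightness the 87 spots without a name (3.55 times background in the field and 3.68 in the cabinet channel, in the median). By that measure 79 cDNAs were dim in both channels. RAV1, ZAT12, ACC, EIF, ELONGATION FACTOR and STEROID SULFOTRANSFERASE were placed in groups after the names were seen. Of 4 further names without a known meaning none was called. Alternatives covered background, normalization, spot averages, dim cDNAs, replication, dates and single plants. Clone sequences and gene identities were not analysed here.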

Additional observations from a re-analysis of the deposited data

Results flagged for a closer look

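The difference between the years itself passed the limma test at 68 cDNAs. Among those named, the called clones cld5_d08 (4.03, log2 ratio, 2005 minus 2003) and cld24_f12 (3.98) had all 2003 plants below and all 2005 plants above the cabinet level. The called clone drt5_d05 (-4.28) had them the other way round, and drt11_b03 (-4.13) was high in every 2003 plant and near the cabinet in 2005.

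For 3 of the 28 gene-named cDNAs all plants of a year lay on the side of the cabinet level opposite to the other year, although the limma test of the difference did not pass. Over all 4279 cDNAs this was so at 166 with the 2003 plants above the cabinet and at 139 with them below it. PIP (-0.70, adjusted p 0.0736; -0.27 with median centring) and RAV1 (-0.51, adjusted p 0.132) were above the cabinet in the 3 plants of 2003 and below it in the 3 of 2005. CBF (0.25, adjusted p 0.415) was below it in 2003 and above it in 2005, by at most 0.26 in each plant. RAV1 and CBF were no brighter than unnamed spots over the 12 arrays, and RAV1 ran from -0.82 to -0.17 and CBF from -0.00095 to 0.34 over the alternatives.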

How the results depend on the processing

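The count of 68 cDNAs that differed between the years in the ratio depended on the processing. It was 168 without background correction, 42 with a normexp offset of 10, 277 after giving all arrays 1 common spread and 127 from the deposited values. It was 1241 with the 12 arrays as independent replicates, which counts the arrays of a plant apart. With the quantification date as a random block it was 420, and with the plant letter as a replicate block (paired fit) 353. Leaving out 1 plant gave 0 to 158. The other alternatives gave 68 to 99. The first dye order alone (79), the reversed order alone (99) and the spots with the letter G alone (68) were chosen after seeing the data. In every alternative all 68 had the same sign, which their choice from the same plants favours. Field channel counts ran from 1049 (without B of 2005) to 1864 with 1 plant left out and cabinet channel counts from 1038 to 1741.

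The replicate block made COR15 and SPS pass, as well as 2 names without a known meaning, and changed no other call among the named cDNAs. The causes of these shifts were not tested. The 4 named clones kept their sign in 88 comparisons with alternatives and lost the call in 22, of which 19 left out a plant. Of 610 such comparisons for the 28 gene names, 560 kept sign and side of the threshold, 20 passed it and 30 turned in sign, all for differences that were 0.25 or smaller in size. The turned values (log2) with print-tip loess were 0.069 for DEHYDRIN, 0.017 for STEROID SULFOTRANSFERASE, 0.033 for UBQ10 and 0.024 for BMF. With median centring they were -0.17 for DEHDRIN, -0.00095 for CBF, -0.049 for DREB1A, 0.042 for UBQ10 and -0.15 for BMP. With the first dye order alone they were 0.045 for CBF1, -0.078 for AOX1A and 0.062 for ACTIN2, and with the reversed order -0.00097 for DEHDRIN. DEHDRIN was -0.0016 without background correction, CBF1 0.012 with the offset of 10, ACTIN2 0.042 with scaled arrays and ACC 0.0082 from the deposited values. With 1 plant left out, AA03 ran from -0.18 to 0.066, DEHDRIN from -0.014 to 0.090, CBF1 from -0.12 to 0.048, ACTIN2 from -0.22 to 0.20, UBQ10 from -0.47 to 0.13 and ELONGATION FACTOR from -0.037 to 0.37.

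With 3 plants a year and 4 residual degrees of freedom, a missed threshold does not show that the years were alike, and the brightness of dim cDNAs limits their ratios.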
